A study of Danio rerio with 40 samples.

Results

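The zebrafish gene *cyp11c1* codes for 11-beta-hydroxylase, the enzyme that adds the 11-beta hydroxyl group in the synthesis of cortisol and of the 11-oxygenated androgens of fish. The data described here are the DNA methylation levels of 1 stretch of this gene, an amplicon of 416 bases on chromosome 16 from 54645580 to 54645995 (GRCz11, minus strand), in the gonads of 40 fish. The members are its CpG sites, taken by position. The amplicon runs from 201 bases before the transcription start at 54645794 to 215 bases into the gene, and it holds 19 of the 99 CpG sites counted for the 6 amplicons of the study. Of these 19 sites, 2 lie before the transcription start and 17 after it. Each site is named here by its distance from the start, so that +74 is the 74th base of the gene and -64 lies 64 bases before it. Strand, start and primers come from the study's primer table, and neither exons nor introns were assigned to the sites here.

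All fish were AB strain zebrafish of 90 days, and each gave 1 gonad. There were 4 groups of 10 fish. Control females and control males were kept at 9 fish/L, and their gonads are the ovaries and testes at 9 fish/L. Crowded females and males spent days 18 to 45 after fertilization (dpf) at 66 fish/L and then returned to less than 16 fish/L. The study drew all fish from 1 family, whose number is given as 4 in its results and as 6 in its methods. The comparisons asked whether the methylation of the gene differed between the sexes and whether a past period of crowding could still be read from it in the adult gonad.

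Methylation of cytosines that stand before a guanine is a mark that vertebrate cells copy when they divide, and dense methylation around a transcription start usually goes with a silent gene. In teleost fish the product of *cyp11c1* is known as the step towards 11-ketotestosterone, the main androgen of the testis, and the same enzyme makes cortisol in the interrenal gland, the fish counterpart of the adrenal cortex. Gonads hold germ cells and several kinds of somatic cells. A level between 0 and 100% in such bulk tissue may come from a share of cells that are fully methylated or from partial methylation in most cells, and these cannot be told apart here.

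Methylation Bisulfite Sequencing (MBS) reads the mark after sodium bisulfite has turned unmethylated cytosines into uracil, which is sequenced as thymine. The primers that framed the amplicon are shown because they set which bases could be read at all, and because the site next to the reverse primer is 1 of the 2 sites at which the sexes did not differ beyond the spread between fish. They are written 5′ to 3′ in lower case as designed for converted DNA.

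*cyp11c1* forward primer: ttttttttgatttgtgtttttttatagtaa
*cyp11c1* reverse primer: aactcctccatatatttatacatac

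The forward primer of 30 bases covers positions -201 to -172 and holds 0 cytosines, and the reverse primer of 25 bases covers +191 to +215 and holds 0 guanines. Neither contains a CpG. Placed at the ends of the amplicon, they left 107 bases between the forward primer and its nearest site, -64, and 0 bases between the reverse primer and the site +190.

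All 19 sites were read in all 40 fish. The median coverage of the sites in a fish ran from 448 to 29650 reads, with a median of 5994 over the 40 fish. By group it ran from 448 to 15059 in ovaries at 9 fish/L, from 2414 to 13566 in ovaries at 66 fish/L, from 1034 to 9100 in testes at 9 fish/L and from 3312 to 29650 in testes at 66 fish/L. In 2 fish, the ovaries G17 and G19 at 9 fish/L, it was under 1000 reads (448 and 452). The counting error of a single site averaged at most 0.744 percentage points over the fish of a sex, while the SD between the fish was between 5.51 and 21.9 percentage points in ovaries and between 1.52 and 3.76 in testes. The methods name a removal of duplicates. All reads come from PCR products framed by the same primers, so the deposited counts cannot tell copies of 1 molecule from separate molecules. The intervals given on reads therefore hold counting error alone and may be too narrow.

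The gene was methylated in both sexes and far more evenly and strongly in testes. The level of a fish, the mean over its 19 sites, averaged 70.3% ± 10.3 (SD, n = 10) in the control ovaries, which ran from 52.6% over a median of 67.5% to 84.1%. In ovaries at 66 fish/L the average was 67.5% ± 8.54 (SD, n = 10), from 57.6% over a median of 63.8% to 80.5%. Testes at 9 fish/L had a level of 89.9% ± 1.86 (SD, n = 10), from 87.9% over 89.8% to 93.0%. Testes at 66 fish/L had a level of 91.1% ± 1.78 (SD, n = 10), from 88.3% over 90.8% to 94.1%. All 20 testes lay above all 20 ovaries, and within a sex the densities overlapped.

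Testes exceeded ovaries by 21.6 percentage points (SE 2.13, 20 against 20 fish, two-sided permutation test within density, *p* = 1e-05, which is the lower limit of 100000 resamples). The difference was 19.6 points (SE 3.31) at 9 fish/L and 23.6 points (SE 2.76) at 66 fish/L, each with an exact permutation *p* = 1.08e-05, the smallest value that 10 against 10 fish allow.

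**Figure D1:**
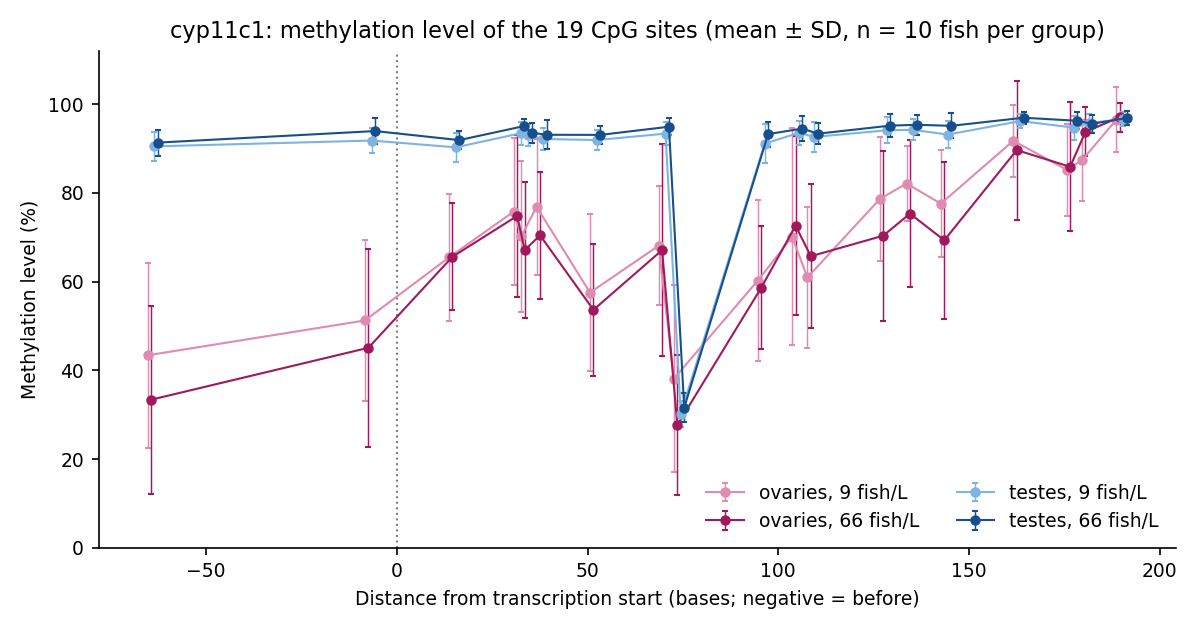
DNA methylation level (%) of the 19 CpG sites of *cyp11c1* against their distance from the transcription start in bases, as mean ± SD of 10 fish for each of the 4 groups; the dotted line marks the start. Testes stay above 90% at 18 sites and drop to 30.9% at +74, while ovaries climb from 38.4% at -64 to 96.7% at +190.

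The profile along the gene was the plainest difference between the sexes. In testes the means of 18 sites lay between 90.9% at -64 and 96.7% at +190, and the remaining site, +74, was at 30.9%. In ovaries the means of the same 18 sites lay between 38.4% and 96.7%. The ovarian profile was low before the start, intermediate over the first part of the gene and high at its inner end.

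The 2 sites before the transcription start were the ones where ovaries and testes stood farthest apart. At -64 (position 54645858) ovaries ranged from 8.08% over a median of 37.1% to 76.1%, and testes ranged from 85.9% over 91.2% to 95.8%. Here the difference was 52.5 points (SE 4.77), the largest of the amplicon, and every testis was above every ovary. At -7 (position 54645801), directly before the start, ovaries ranged from 19.6% over 47.2% to 85.2% and testes from 85.7% over 93.0% to 97.5%. The difference at -7 was 44.7 points (SE 4.53), again without overlap, although the highest ovary and the lowest testis were close.

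Inside the gene, the first 6 sites, from +15 to +70, had ovarian means between 55.6% at +52 and 75.3% at +32. The differences from testes ran from 18.9 points at +32 to 36.9 points at +52. At +15 and +52 the sexes did not overlap, as at the 2 sites before the start, which makes 4 of 19 sites without overlap against 29.1% of the 117 positions tested in the series. At +15 the highest ovary (83.7%) and the lowest testis (83.96%) were close.

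The 6 sites from +96 to +144 had ovarian means between 59.4% at +96 and 78.7% at +135, with differences between 16.1 and 32.7 points. The site with the largest SD over all 20 ovaries was in this stretch. At +105 (position 54645690) ovaries ranged from 17.6% over 74.4% to 96.9% with an SD of 21.9, and testes ranged only from 90.1% to 99.5%. The lowest of these ovaries was G17, of 448 reads, and without the 2 ovaries of low coverage the SD at +105 was 18.8 (n = 18) and the largest SD was that of -64, at 21.5. In testes the site that varied most was +96 (position 54645699), with values from 82.0% over 91.5% to 98.1% and an SD of 3.76.

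At the inner end the sexes came together. Ovaries had means of 85.5% at +177, 90.7% at +163 and 90.5% at +181, the last 5.10 points (SE 1.85) below testes. At +190 (position 54645605), the site beside the reverse primer, ovaries were at 96.7% ± 5.51 and testes at 96.7% ± 1.52 (SD, n = 20 each). The difference of -0.02 points (SE 1.28, permutation test, *p* = 0.993, adjusted *p* = 1.0) was the smallest of the amplicon, and the ovaries spanned 76.4% to 100% around testes of 94.5% to 99.4%. The medians were 98.9% in ovaries and 96.4% in testes, and the lowest ovary was G12 at 9 fish/L. The place of +190 directly beside the primer is given as a fact, and any part of it in the value was not tested.

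Of the 19 sites, 17 differed between the sexes after Benjamini-Hochberg adjustment over the 117 positions tested in the 6 amplicons, all of them higher in testes. In the whole series 69.2% of the positions differed between the sexes and 48.7% were higher in testes. The positions tested in the series include cytosines other than the 99 counted CpG sites, 4 of them in the *cyp11c1* amplicon. These were +12, +168, -163 and -190, of which -190 lies within the forward primer. Shares over the series are therefore not shares of CpG sites alone. The adjusted *p* was 1.72e-05 at 14 of the 17 sites, where no resample reached the observed difference, 0.000217 at +177, 0.00956 at +181 and 0.0465 at +163. The call at +163 (5.85 points, SE 2.74) was lost in 26 of the 40 repeats that each left out 1 fish, with an adjusted *p* of up to 0.0832. The medians at +163 were close, 96.1% in ovaries and 96.3% in testes. The lowest ovaries there were G18 (58.2%) and G22 (63.0%), both at 66 fish/L. The 2 sites that did not pass were +190 and +74.

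**Figure D2:**
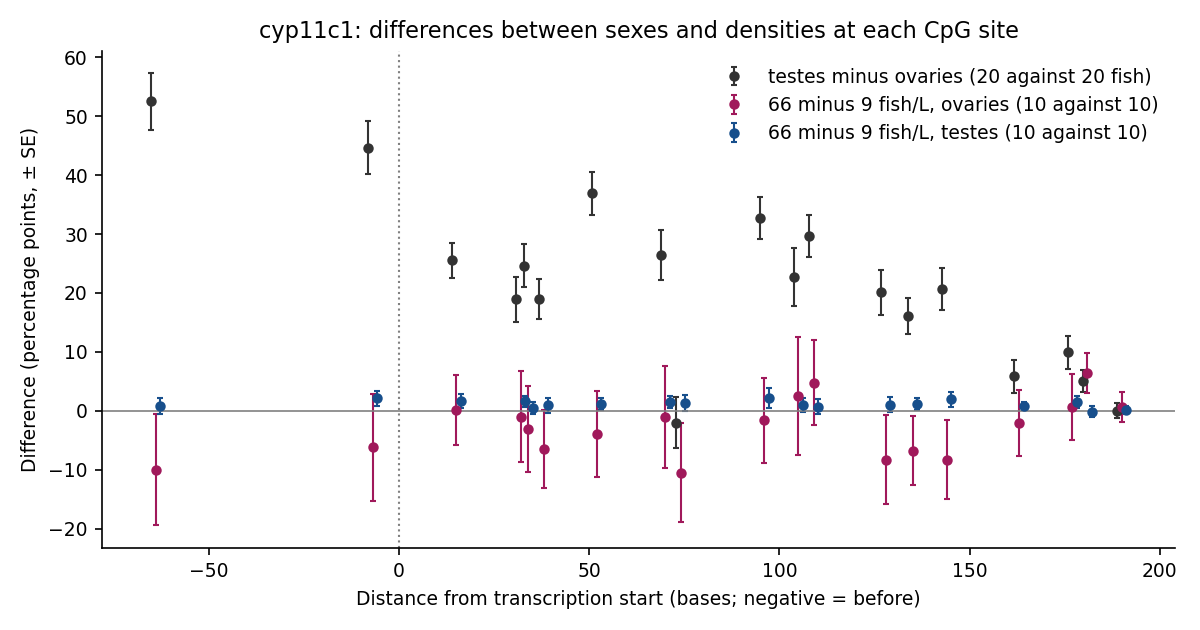
Differences in methylation (percentage points, ± SE) at each of the 19 CpG sites of *cyp11c1* against distance from the transcription start: testes minus ovaries (20 against 20 fish), and 66 minus 9 fish/L within ovaries and within testes (10 against 10 fish each). The sex difference falls from 52.5 points at -64 to -0.02 at +190 and is -2.0 at +74; the density differences lie between -10.5 and 6.40 points in ovaries and between -0.14 and 2.16 points in testes.

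The site +74 (position 54645721) broke the profile of both sexes. In testes it was at 30.9% ± 3.09 (SD, n = 20), from 26.1% over a median of 30.6% to 37.3%, while the other 18 sites of the same testes averaged 93.8% ± 1.94. It was the lowest of the 19 sites in 20 of 20 testes. Its neighbours were high in the same animals, with 94.1% at +70, 4 bases away, and 92.1% at +96, so neither neighbouring site shared the drop. Its SD of 3.09 between testes lay within the range of 1.52 to 3.76 of the 19 sites.

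In ovaries +74 was at 32.9% ± 18.9 (SD, n = 20), from 6.11% over 29.2% to 83.7%, and ranged from well below to well above the testes. It lay below the mean of the fish's other sites in 19 of 20 ovaries and was the lowest site in 13 of them. In the other ovaries the lowest site was -64 in 5 fish, +96 in 1 and +105 in 1. The lowest value of +74 was that of the ovary G2 at 66 fish/L, with 828 methylated of 13558 reads, or 6.11% (95% Wilson interval 5.72 to 6.52%), against 76.9% at its other 18 sites. The highest was that of the ovary G17 at 9 fish/L, with 374 of 447 reads, or 83.7% (79.96 to 86.8%), against 61.8% at its other sites. G17 was thus the exception to the low value, and also the fish with the lowest coverage. Without the 2 ovaries of low coverage, the ovaries ranged from 6.11 to 57.85% at +74, with a mean of 30.7% ± 15.3 (n = 18).

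The mean of +74 was 2.0 points lower in testes than in ovaries (SE 4.28, permutation test, *p* = 0.658, adjusted *p* = 0.81), which is within the spread between the fish. Leaving it out of the level gave 70.9% ± 9.63 in ovaries and 93.8% ± 1.94 in testes, a difference of 22.9 points (SE 2.20). Among the 49 CpG sites of the 4 amplicons with higher methylation in testes, +74 was 1 of 3 sites with a mean under 80% in testes. The other 2 belong to *hsd17b1*, another steroidogenic enzyme, at positions 17897380 (63.9%, SD 33.6) and 17897597 (32.6%, SD 33.8). Their SD between testes was thus far above the 3.09 of +74, and the remaining 46 sites were at 87.4% or more.

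**Figure D3:**
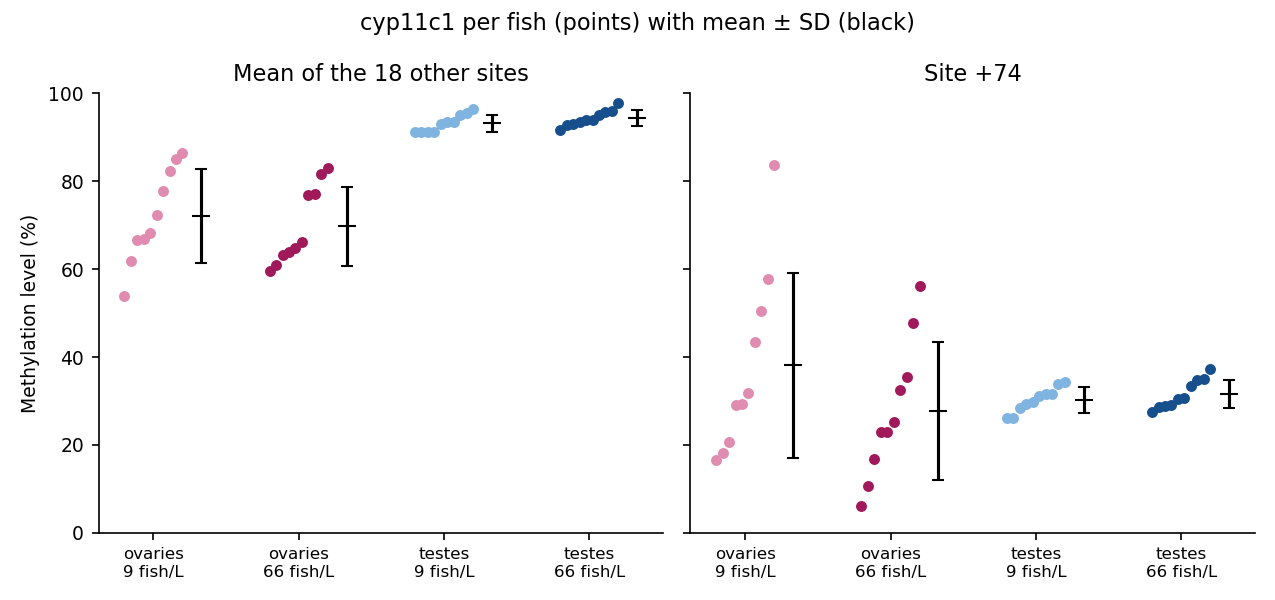
Methylation level (%) of *cyp11c1* in each fish, as the mean of the 18 other sites (left) and at the site +74 (right), by sex and density; each point is 1 fish and the black bar gives mean ± SD of 10 fish. Every testis sits above every ovary in the left panel (91.2 to 97.8% against 54.0 to 86.3%), and on the right the testes lie between 26.1 and 37.3%, inside the range of the ovaries, from 6.11 to 83.7%.

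From fish to fish, the sites before and after the start moved together in both sexes, and no such relation passed the test for +74. The mean of the 2 sites before the start correlated with the mean of the 16 sites after it that exclude +74 (Pearson's *r* = 0.75, permutation *p* = 2e-04, Spearman's ρ = 0.69, permutation *p* = 0.0013, n = 20, adjusted *p* over 4 relations 4e-04 and 0.0026). Without the 2 fish farthest from the median *r* was 0.76, and it was 0.74 at 9 fish/L and 0.78 at 66 fish/L. The same relation in testes gave *r* = 0.82 (permutation *p* = 2e-05) and ρ = 0.80 (permutation *p* = 9e-05), with adjusted *p* of 8e-05 and 0.00036, *r* = 0.78 without the 2 farthest fish, and 0.86 and 0.75 within the 2 densities. For +74 and the same 16 sites, *r* was 0.09 in ovaries (permutation *p* = 0.699, ρ = 0.16, *p* = 0.506, adjusted *p* = 0.699 and 0.506) and 0.21 in testes (permutation *p* = 0.37, ρ = 0.21, *p* = 0.371, adjusted *p* = 0.494 for both). Without the 2 farthest fish these values of *r* were 0.03 and 0.43, and within densities they were 0.08 and 0.06 in ovaries and -0.0024 and 0.30 in testes. In ovaries without the 2 fish of low coverage *r* was 0.34 (n = 18).

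As a description over the 20 fish of a sex, after the group means were removed, sites up to 20 bases apart had a median *r* of 0.58 in ovaries and 0.62 in testes (23 pairs), and sites over 100 bases apart 0.27 and 0.47 (58 pairs). The median *r* of +74 with each of the 18 other sites was 0.06 in ovaries and -0.0013 in testes.

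**Figure D4:**
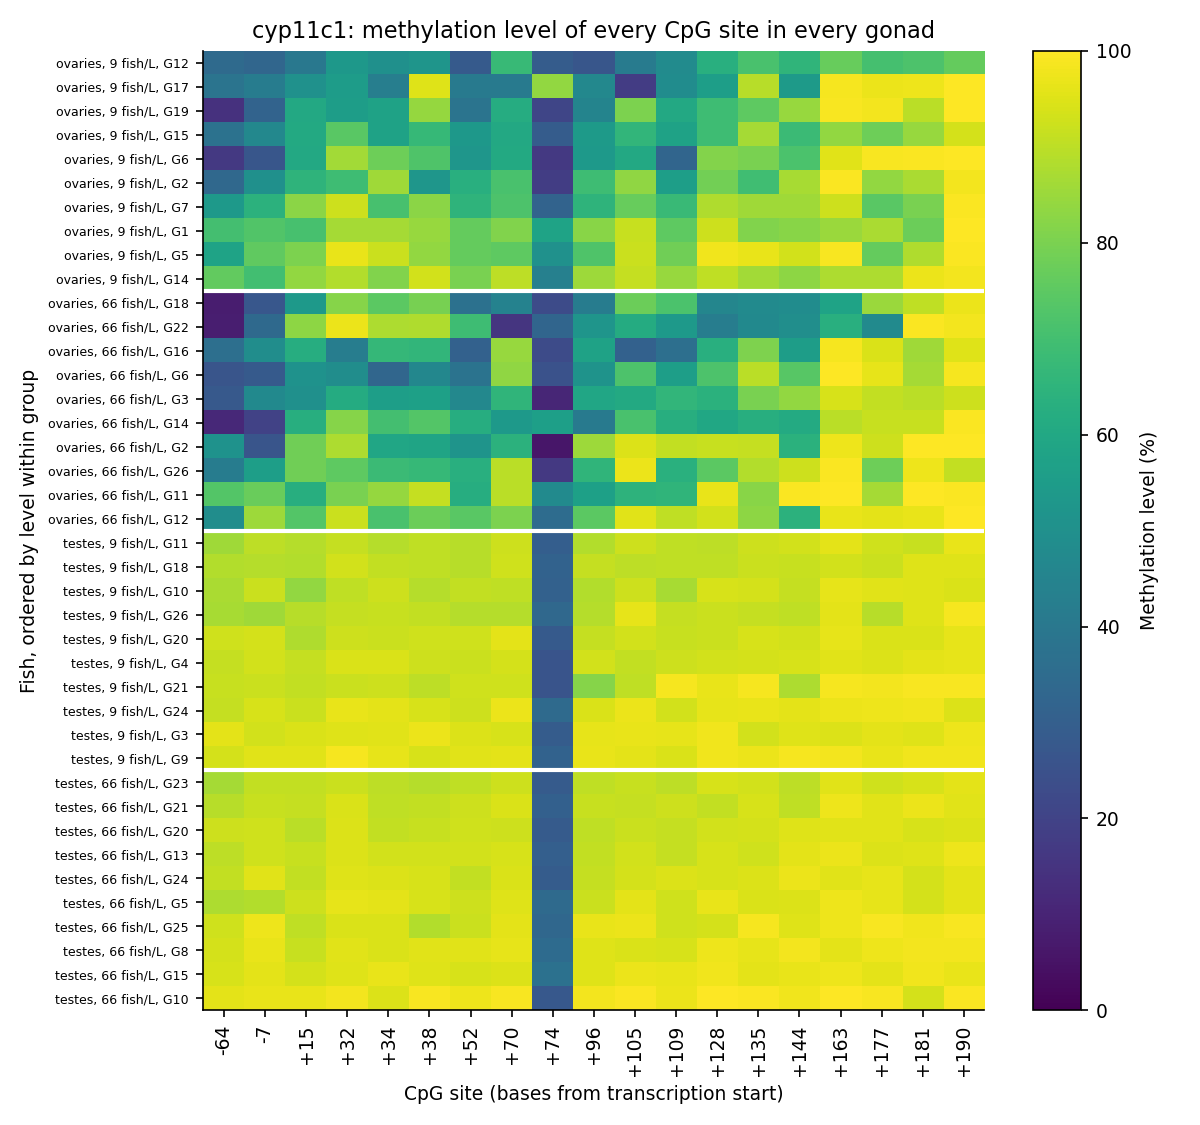
Methylation level (%, colour scale from 0 to 100) of every CpG site of *cyp11c1* (columns, bases from the transcription start) in each of the 40 gonads (rows, ordered by level within each group). The dark column at +74 is present in all 20 testes between 26.1 and 37.3%, whereas the ovaries differ from fish to fish and darken towards -64, where they average 38.4%.

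The drop towards the promoter was tested within the fish. In ovaries the 2 sites before the start averaged 43.3% ± 19.6 and the 17 sites after it 72.0% ± 8.53 (SD, n = 20). The difference before minus after was -28.7 points (SE 3.13, permutation test by sign flips, *p* = 1e-05) and was below 0 in 20 of 20 ovaries, from -54.6 to -5.42 points. In testes the same difference was 1.54 points (SE 0.399, permutation *p* = 0.00176), with 91.9% ± 2.86 before and 90.3% ± 1.82 after the start, and it was below 0 in 2 of 20 testes. The positive sign in testes came from +74. Without this site the difference turned to -2.18 points (permutation *p* = 1e-05) and was below 0 in 19 of 20 testes, and with medians on each side it was -1.89 points (permutation *p* = 1e-05). Leaving out +74 was decided on its low value in these same fish, and doing so raises the mean after the start. In ovaries the difference was -31.1 points without +74. The sexes differed in it by 30.2 points (SE 3.15, permutation test, *p* = 1e-05).

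The slope of methylation over the 19 sites was positive in every gonad and shallower in testes. It was 18.2 ± 7.29 percentage points per 100 bases into the gene in ovaries and 2.96 ± 0.759 in testes (SD, n = 20 each). As a description over sites, which share fish and libraries, the rank correlation of the mean level with distance over the 18 sites was 0.77 in ovaries and 0.81 in testes.

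Ovaries also varied more from fish to fish. The SD between fish was larger in ovaries at 19 of 19 sites, against 82.9% of the positions tested in the series. That share includes the nearly unmethylated *dnmt1* sites. The SD was also larger in ovaries at every CpG site of *dmrt1*, *cyp19a1a* and *hsd11b2*. In *hsd17b1* only positions 17897380 and 17897597 went the other way, so this trait is not particular to *cyp11c1*. The absolute deviation of a fish's level from its group median averaged 7.57 points in ovaries and 1.44 points in testes (difference testes minus ovaries -6.13, SE 1.36, permutation test, *p* = 2e-05). It was -6.33 without the 2 ovaries of low coverage. At +74 alone, the deviations averaged 13.6 and 2.47 points (difference -11.1, SE 2.95, permutation test, *p* = 3e-05), or -9.12 without these 2 ovaries (permutation *p* = 4e-05). Within single ovaries the 18 sites other than +74 spanned between 28.6 and 90.9 points from lowest to highest, and within single testes between 4.39 and 16.8 points.

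This unevenness along the amplicon was compared with the 3 other amplicons whose sites all had higher means in testes. They belong to *cyp19a1a*, the gonadal aromatase that turns androgens into estrogens, to *hsd11b2*, which inactivates cortisol and takes part in making 11-ketotestosterone, and to *hsd17b1*. They were picked after the values had been seen, and the amplicons differ in their number of sites. The amplicon of *dmrt1*, which was lower in testes, was not compared. Its 24 site means in ovaries ran from 9.94% to 75.2%, so unevenness in ovaries is not particular to *cyp11c1*. The SD over the sites of a fish in ovaries was 18.5 ± 6.22 points for *cyp11c1* (18 sites without +74), 3.83 ± 1.24 for *cyp19a1a* (15 sites), 9.30 ± 2.20 for *hsd11b2* (9 sites) and 11.9 ± 3.39 for *hsd17b1* (6 sites). In ovaries it was larger for *cyp11c1* than for *cyp19a1a* in 20 of 20 fish, by 14.7 points (SE 1.38, permutation test by sign flips, adjusted *p* = 3e-05 over 6 comparisons). It was larger than for *hsd11b2* in 18 of 20, by 9.21 points (SE 1.44, permutation test, adjusted *p* = 4e-05), and larger than for *hsd17b1* in 17 of 20, by 6.58 points (SE 1.71, permutation test, adjusted *p* = 0.00174).

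In testes the order was another. The SD of *cyp11c1* over the 18 sites was 2.27 ± 0.827 points, larger than that of *cyp19a1a* by 1.0996 points (SE 0.258, permutation test, adjusted *p* = 0.00066) and different from that of *hsd11b2* by 0.06 points (SE 0.211, permutation test, adjusted *p* = 0.78). That of *hsd17b1*, with its 2 low sites included, was 32.8 ± 6.14 points, and *cyp11c1* was lower in 20 of 20 testes (difference -30.6, SE 1.30, permutation test, adjusted *p* = 3e-05). With +74 included, the SD of *cyp11c1* was 14.6 ± 0.761 points in testes and 20.6 ± 5.45 points in ovaries, and these were not tested against the other amplicons. The site +74 was left out for its value in these data, and no site of the other amplicons was left out. The comparisons in testes depend on that choice.

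No density difference in *cyp11c1* exceeded the spread between fish in the permutation tests. The study set the density by tank, and the labels name no tank. The density tests therefore measure spread between fish, and density cannot be told apart from tank here. In ovaries the level was 2.84 points lower at 66 fish/L (difference -2.84, SE 4.23, exact permutation test, *p* = 0.506). In testes it was 1.17 points higher (SE 0.816, exact permutation test, *p* = 0.168). The difference between these effects was 4.00 points (permutation test, *p* = 0.346). Without the 2 ovaries of low coverage the difference in ovaries was -4.49 points (exact permutation test, *p* = 0.336). In testes a quasi-binomial model on the reads summed per fish, which gives deeply read fish more weight, put the difference at 1.54 points and past the threshold (*p* = 0.0452). Without the deepest testis, G5 at 66 fish/L (median coverage 29650 reads), it was 1.69 points (*p* = 0.0602, 19 fish).

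Site by site, 0 of 19 sites differed between densities in ovaries and 0 of 19 in testes after adjustment, and in the series 0.0% of 117 and 0.0% of 120 positions did. At an unadjusted *p* under 0.05 the exact permutation test gave 0 sites in either sex, where the series had 4.27% of positions in ovaries and 4.17% in testes. A quasi-binomial model on the reads also gave 0 adjusted calls, with 1 site in ovaries and 5 in testes at an unadjusted *p* under 0.05, where the same model gave 7.69% of the 117 positions in ovaries and 5.83% of the 120 in testes. The 5 sites in testes were thus 5 of 7 such positions in the series, and they share their fish and reads.

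In ovaries the largest density difference was at +74, where the mean was 38.1% ± 21.1 at 9 fish/L (16.6 to 83.7%, median 30.6%) and 27.7% ± 15.8 at 66 fish/L (6.11 to 56.3%, median 24.1%). The difference of -10.5 points (SE 8.33, exact permutation test, *p* = 0.229, adjusted *p* = 1.0) was smaller than the SD of either group, and it was -6.95 points without the 2 ovaries of low coverage (exact permutation *p* = 0.35). The next was -64 with -10.01 points (SE 9.40; exact permutation test, *p* = 0.298). The smallest *p* belonged to +181, which was at 87.3% ± 9.09 at 9 fish/L (72.0 to 99.3%) and at 93.7% ± 5.52 at 66 fish/L (85.9 to 99.8%). This difference of 6.40 points (SE 3.36, exact permutation test, *p* = 0.0719, adjusted *p* = 0.934) went the opposite way, and the groups overlapped. The smallest difference was 0.14 points at +15. The mean was higher at 66 fish/L at 6 of 19 sites in ovaries, against 26.5% of the positions of the series.

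In testes the mean was higher at 66 fish/L at 18 of 19 sites, against 54.2% of the positions tested. The sites share their fish and their reads, so this count is no set of independent observations, and no single site passed. The largest difference was 2.16 points at +96 (SE 1.65, exact permutation test, *p* = 0.211), where the mean was 91.1% ± 4.39 at 9 fish/L and 93.2% ± 2.83 at 66 fish/L. The smallest *p* was at +32, with 93.4% ± 2.63 at 9 fish/L, 95.02% ± 1.52 at 66 fish/L and a difference of 1.61 points (SE 0.962, exact permutation test, *p* = 0.112, adjusted *p* = 0.903). At +181, the 1 site that was lower, the difference was -0.14 points. At +74 testes were at 30.2% ± 2.87 at 9 fish/L and 31.6% ± 3.30 at 66 fish/L, 1.39 points higher (SE 1.38, exact permutation test, *p* = 0.326). A different density effect in the sexes was called at 0 of 19 sites (permutation test of the interaction, with adjusted *p* of at least 0.738 over the 19 sites and an unadjusted *p* of at least 0.0598). The interaction was tested at these 19 sites alone, so no share over the series can be set beside this count.

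Among the other 5 genes, those whose level over fish was most like *cyp11c1* by Pearson's *r* were *dmrt1*, a transcription factor of testis development, and *dnmt1*, the maintenance DNA methyltransferase, in ovaries, and *hsd11b2* and *hsd17b1* in testes. In ovaries *r* was 0.45 with *dmrt1* (permutation *p* = 0.047, ρ = 0.58, permutation *p* = 0.00895) and 0.35 with *dnmt1* (permutation *p* = 0.129, ρ = 0.30, permutation *p* = 0.198). In testes *r* was 0.49 with *hsd11b2* (permutation *p* = 0.0276, ρ = 0.54, permutation *p* = 0.0156) and 0.35 with *hsd17b1* (permutation *p* = 0.128, ρ = 0.33, permutation *p* = 0.152). By Spearman's ρ the second place went to *hsd17b1* in ovaries (ρ = 0.40, permutation *p* = 0.0846) and to *cyp19a1a* in testes (ρ = 0.52, permutation *p* = 0.0216), for which *r* was 0.26 and 0.07. Each value rests on 20 fish. After adjustment over the 10 relations no value passed, with adjusted *p* from 0.235 for *r* and from 0.0721 for ρ. Without the 2 fish farthest from the median *r* became 0.41, 0.07, 0.63 and 0.35 in the same order, and at 9 and 66 fish/L it was 0.32 and 0.60 for *dmrt1*, 0.59 and -0.18 for *dnmt1*, 0.63 and 0.47 for *hsd11b2* and 0.64 and 0.35 for *hsd17b1*. The relation with *dnmt1* in ovaries thus changed sign between the densities. The 26 CpG sites of *dnmt1* were nearly unmethylated in ovaries, with means from 0.203% to 1.204%. At the highest of them, position 54352619, the SD between the ovaries was 3.51 points. The *r* of 0.35 with *dnmt1*, which was 0.07 without the 2 farthest fish, therefore rests on differences between very low values.

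Besides the 19 sites, the lists held 42 other cytosine positions inside the amplicon. Of these, 3 lay within the forward primer and 4 within the reverse primer, where reads show the primer and not the DNA of the fish. The 42 positions had 33357 reads in all, or 0.645% of the reads of the amplicon, and 29 of them had no methylated read. The deepest was +12 (position 54645783), read in all 40 fish at a median of 10.1% of the coverage of the sites (5.80 to 21.8%), between 26 and 2717 reads. There 90 of 29340 reads were methylated, or 0.307%, with at most 1.02% in any fish, although its neighbour +15 averaged 65.5% in ovaries and 91.1% in testes. The next deepest, -163, had 5 methylated of 1410 reads. What sets +12 apart from its neighbours was not tested, and no genome of this build was used to read its sequence context.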

How the data were processed

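MBS of 6 gonadal amplicons was analysed in 40 zebrafish, grouped by the sample labels, with the densities and dates of the methods. According to the methods and the processing notes, the authors trimmed reads with Trim Galore 0.4.5 (quality 20), aligned them with Bismark (16.0 in the notes) and Bowtie2 to the converted GRCz11 genome, removed duplicates and extracted CpG calls. The methods name another version of Bismark. The counts of methylated and unmethylated reads were deposited by the authors without normalization, 1 list of cytosines per fish. The percent values deposited beside them are the authors' share of methylated reads. Total depth, expression and sex ratio were not used here.

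Percentages were computed from the counts at cytosines covered by more than 5 reads, the minimum stated in the methods, which the lists do not apply. In 1 list a repeated header line was dropped. The 19 sites are the deepest cytosines inside the amplicon limits of the study's primer table, as many as that table counts. Their median coverage was 448 to 29650 reads per fish. Strand was not assigned to single cytosines.

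The fish was the unit, although density was set by tank and the labels name no tank. Densities were compared within a sex by two-sided exact permutation tests over all 184756 splits, sexes by permutation within density and the interaction by permuted residuals, each with 100000 resamples. Within-fish differences were tested by sign flips. Site *p*-values were adjusted (Benjamini-Hochberg, threshold 0.05) over all positions of the 6 amplicons with at least 6 fish per group, 117 between sexes and in ovaries and 120 in testes. The site tests were checked on simulated data with independent sites and the same spread in both sexes. That setting differs from these data, where ovaries varied more and sites were correlated. Named in full are, for each comparison, the sites of largest and smallest difference and of smallest *p*, the 3 sites farthest from the others and the most variable site in each sex, the 2 sites before the start and the 2 other genes of closest correlation. The members, lists and tests were chosen with earlier results of these data known.

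Alternatives changed the coverage minimum, the cytosines, the average and the fish, or replaced the permutation test by a two-way ANOVA with Tukey's HSD or by a quasi-binomial model. Replicate numbers are the code numbers of the fish, and the labels name no batch. Software was Python 3.11.15 with scipy 1.17.1, statsmodels 0.14.6, pandas 2.3.3, matplotlib 3.10.9 and numpy 2.4.6.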

Additional observations from a re-analysis of the deposited data

Results flagged for a closer look

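Of 80 sets of 10 fish examined (76 for the sites and 4 for the levels of the groups), 3 sets, all for sites, had a single fish far from the other 9, where about 1 in 20 would by chance. At +190 the ovary G12 at 9 fish/L had 76.4% against 93.7% in the next fish, with 7150 reads, and at +177 the ovary G22 at 66 fish/L had 47.8% against 77.8%, with 7160 reads. At +163 the testis G10 at 66 fish/L had 99.8% against 97.6%, with 6110 reads.

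Of the cytosines outside the 19 sites, 2 that stand 1 base beside a site carried more than 1 methylated read, at low depth. At +127 (position 54645668), beside +128, 73 of 135 reads over all fish were methylated, or 54.1%, with 33 of 83 in ovaries (39.8%, 95% Wilson interval 29.9 to 50.5%) and 40 of 52 in testes (76.9%, 63.9 to 86.3%). At +95 (position 54645700), beside +96, it was 12 of 58 reads, or 20.7%, with 5 of 44 in ovaries and 7 of 14 in testes. Among the cytosines beside a site, they were the ones whose share exceeded the limit that a count of 0 would allow. The positions +12 and -163, which do not stand beside a site, exceeded this limit too, at 0.307% and 0.355%. More than 5 reads were present in 5 fish at +127 and in 0 fish at +95. The reads at both positions were pooled over fish, so the Wilson intervals leave out the spread between fish. The sexes were not tested against each other at these positions.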

How the results depend on the processing

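The sex difference of the level stayed between 18.4 and 24.6 points under 11 alternatives and between 20.7 and 22.4 points with each fish left out. Among these alternatives, the other coverage minimums and the ANOVA could not move the difference. Every site had at least 440 reads in every fish, and the ANOVA used the same levels. Between 16 and 17 of the 19 sites were called between the sexes under other settings and with each fish left out. The call at +163 was lost with no coverage minimum (adjusted *p* = 0.0529) and that at +181 in the quasi-binomial model (adjusted *p* = 0.0559). The density difference in ovaries ranged from -4.80 to -1.31 with each fish left out, and in testes from 0.826 to 1.51. In testes it was 1.54 points in the quasi-binomial model on summed reads, which weights fish by coverage and passed the threshold (*p* = 0.0452, 20 fish, or 0.0602 without the deepest testis), and -0.35 over all listed cytosines (exact permutation *p* = 0.888). With the code number as replicate block (4 pairs of fish in each sex, exact sign-flip test, smallest possible *p* 0.125), the density difference was 2.04 points in ovaries (*p* = 0.75) and 0.997 in testes (*p* = 1.0). Correlations of the site values of fish with the same code number ran from -0.48 to 0.41, which cannot show or exclude a pairing. Each fish gave 1 gonad at 90 days, so a code number found at both densities belongs to different animals. The code numbers were therefore not taken to pair fish. The difference of sites before minus after the start in testes turned to -1.89 points with medians and to -2.18 points without +74, an alternative added after the data had been seen, as was leaving out single fish. The site +74 counts among the sites after the start. At +163 every fish had at least 448 reads, so dropping the coverage minimum changed only the positions in the adjustment. The average over all listed cytosines adds those with more than 5 reads in a fish. These were mostly near 0% and were not the same set in every fish. The cause of the other changes was not tested. Leaving out the 2 ovaries under 1000 reads moved the density difference in ovaries from -2.84 to -4.49 points, and the SE of the density difference was 4.23 points in ovaries and 0.816 in testes.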
